A study of Mus musculus with 16 samples.

Results

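The 10 genes described here encode the contents of the primary (azurophil) granules of neutrophils and proteins that go with them. They are the peroxidase Mpo, the serine proteases Elane, Prtn3, Ctsg and Prss57, the granule proteoglycan Srgn, the cystatin Cst7, and the membrane proteins Ms4a3, Nkg7 and Igsf6. The genes were listed by symbol, and each of the 10 symbols was found among the 23420 gene rows of both deposited tables. RNA was measured in 2 populations sorted from bone marrow of mice aged 40 weeks. Multipotent progenitors (MPP), which can still form several blood lineages, were sorted as Lin-cKit+Sca1+CD48+CD150-. The second population, committed to granulocytes and monocytes, was that of granulocyte-monocyte progenitors (GMP), which lacked lineage markers, Sca1 and CD150 and carried cKit and the Fc receptors CD16 and CD32. Each population came from 4 mice labelled WT, with the genotype Tet2fl/fl, and 4 mice labelled Tet2KO, with the genotype Tet2-/-, giving 16 libraries in 4 groups. The labels call the mice individual animals with wildtype or Tet2-deficient hematopoiesis. How Tet2 was deleted, by which driver and in which cells, is not given in the sources used here. In each genotype 3 mice gave both populations.

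Primary granules are built while a progenitor passes through the promyelocyte stage. Myeloperoxidase makes hypochlorous acid from hydrogen peroxide and chloride. Neutrophil elastase (Elane), proteinase 3 (Prtn3), cathepsin G (Ctsg) and neutrophil serine protease 4 (Prss57) are made as inactive precursors, trimmed at their N terminus by cathepsin C, and held in the granule as active enzymes. Serglycin (Srgn) carries negatively charged glycosaminoglycan chains that bind the basic proteases. Cystatin F (Cst7) inhibits cysteine cathepsins, cathepsin C among them. Ms4a3 is a membrane-spanning protein used as a mark of cells that descend from GMP, Nkg7 is a membrane protein of cytotoxic granules, and Igsf6 is an immunoglobulin-family receptor of myeloid cells. TET2 oxidizes 5-methylcytosine in DNA.

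The only deposited values are the results of the authors' DESeq2 comparison in each population: a mean of normalized counts over all libraries, a log2 fold change (Tet2KO relative to WT), its standard error (SE), and p-values. Values per library, group means and depths per library are not in these tables, so the spread between mice enters through the SE alone. Tet2 itself was higher in the libraries labelled Tet2KO, by 0.44 in MPP and 0.35 in GMP on the log2 scale, in the authors' deposited tables. A value over the whole gene does not check a deletion within it, so every direction below is taken from the table names. The sort markers followed the gates. Ly6a, which encodes Sca1, had a mean of 266 in MPP and 19.5 in GMP in the authors' deposited tables, and Fcgr3, which encodes CD16, had 19.3 and 525.

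The granule genes ranged from rank 2 to rank 2878 of 19817 detected genes in GMP. Mpo had a mean of 200049 in GMP in the authors' deposited table, rank 2, with only the ribosomal RNA gene Rn45s above it. Elane followed at 23500 (rank 17), Ctsg at 8323 (rank 105), Srgn at 7608 (rank 121), Prtn3 at 4434 (rank 355) and Igsf6 at 3570 (rank 510) in the same authors' deposited table. Nkg7 at 1949 (rank 1182), Ms4a3 at 1488 (rank 1630), Cst7 at 938 (rank 2611) and Prss57 at 850 (rank 2878) were the 4 lowest by mean in GMP in the authors' deposited table. Together the 10 genes made up 2.29% of the summed means in GMP, and 0.477% without Mpo. In MPP they made up 0.333% of the sum, and 0.0817% without Mpo.

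In MPP the order was different. Mpo was again first, with a mean of 23699 (rank 14 of 19430), and Srgn came next with 3868 (rank 360) in the authors' deposited table. Ctsg (868), Elane (816), Nkg7 (699) and Prtn3 (696) had close means in MPP, followed by Igsf6 (338), Prss57 (191), Cst7 (156) and Ms4a3 (75.0), all in the authors' deposited table. Per kb of exon sequence, Mpo stood at 58426 in GMP and 6921 in MPP, Elane at 23882 and 829, Ctsg at 8058 and 841, and Srgn at 3464 and 1761. The lowest levels per kb were those of Prss57 in GMP (299) and of Ms4a3 in MPP (39.8). No spread over libraries is available for these levels, so it cannot be said which neighbours in the order differ.

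Each of the 10 genes had the higher mean in GMP. The ratio of the deposited means, GMP over MPP, was 28.8 for Elane, 19.9 for Ms4a3, 10.5 for Igsf6, 9.59 for Ctsg and 8.44 for Mpo. It was 6.37 for Prtn3, 6.02 for Cst7, 4.45 for Prss57, 2.79 for Nkg7 and 1.97 for Srgn. Among 10316 genes, Elane ranked 7 and Srgn 383 by this ratio. The proteases and Ms4a3 thus had steeper ratios than the proteoglycan Srgn. The tables were normalized separately and the ratios carry no test.

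**Figure D1:**
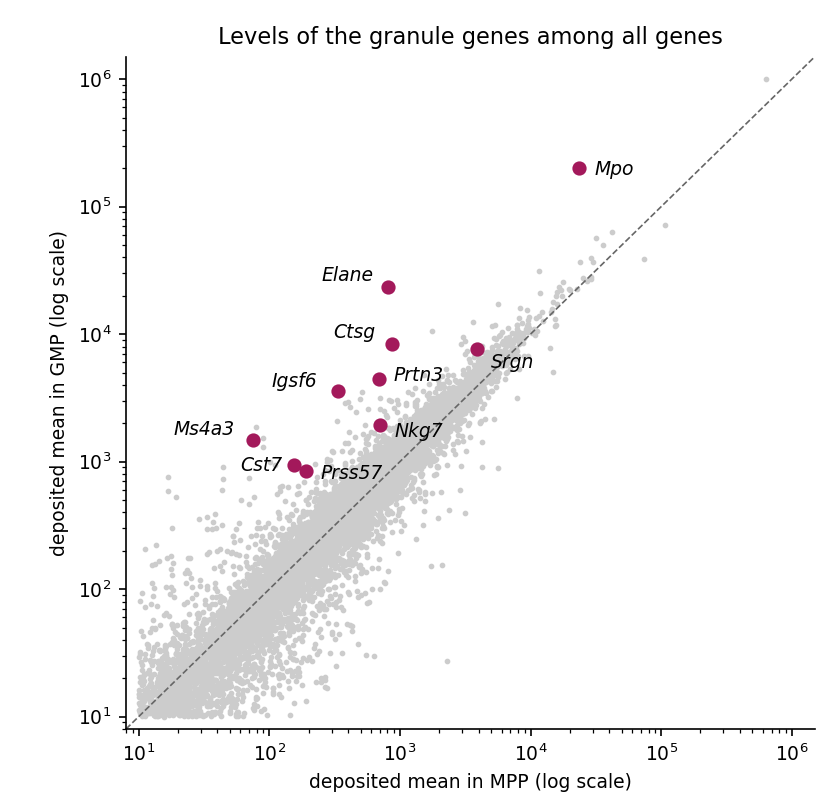
Deposited mean in GMP (vertical, log scale) against deposited mean in MPP (horizontal, log scale), each point a gene, with the 10 granule genes labelled and the dashed line marking equal means. All 10 lie above the line, Elane by 28.8 times and Srgn by 1.97 times.

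In GMP, Ctsg, Ms4a3 and Srgn were lower in the libraries labelled Tet2KO. Of the 10 genes, 8 were tested in GMP and 3 were called at an adjusted p under 0.05, all of them lower, in the authors' deposited table. Over all 11503 tested genes, 3.96% were called in either direction and 2.22% were called lower. The log2 fold change of Ctsg was -0.31 (SE 0.0767, adjusted p = 0.00434 by DESeq2) in the authors' deposited table, a level 19.3% lower, with a 95% interval of -0.459 to -0.159. For Ms4a3 it was -0.40 (SE 0.0976, adjusted p = 0.00394 by DESeq2) in the authors' deposited table, with an interval of -0.588 to -0.205. For Srgn it was -0.31 (SE 0.0815, adjusted p = 0.00796 by DESeq2) in the authors' deposited table, with an interval of -0.472 to -0.152. For Ms4a3 and Srgn the levels were 24.0% and 19.5% lower. The calls were lost when each statistic was divided by the robust spread of all statistics in GMP, which was 1.35 rather than 1: the adjusted p was then 0.222 for Ctsg, 0.216 for Ms4a3 and 0.286 for Srgn, and 72 of the 11503 genes were called. In bulk samples, fewer cells of a type and less RNA per cell cannot be told apart.

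Of the other proteins stored in the granule, Mpo and Prtn3 were tested in GMP and not called, and Elane and Prss57 were not tested. Mpo had a log2 fold change of 0.08 (SE 0.0774, adjusted p = 0.691 by DESeq2) in the authors' deposited table, and its interval in fold ran from 0.950 to 1.17. Prtn3 had 0.04 (SE 0.112, adjusted p = 0.919 by DESeq2) in the authors' deposited table. Elane carried the outlier mark, with which no p-value is given, and stood at -0.08 (SE 0.142, interval -0.356 to 0.199) in the authors' deposited table. Thus Ctsg was called while the estimates of Mpo and Prtn3 lay within 0.1 of 0. The difference between genes was not tested.

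Prss57 had the lowest estimate of the 10 in GMP, -0.41 (SE 0.152) in the authors' deposited table, and, like Elane, carried the outlier mark, as did 2.66% of the genes with a mean of at least 10. Its interval, -0.707 to -0.113, lay below 0, but with the outlier-marked genes included its adjusted p was 0.102. Nkg7 stood at -0.24 (SE 0.0889, adjusted p = 0.11 by DESeq2) in the authors' deposited table, with an unadjusted p of 0.00776. Igsf6 had -0.13 (SE 0.105, adjusted p = 0.591) and Cst7 had 0.05 (SE 0.0856, adjusted p = 0.841) by DESeq2 in the authors' deposited table. In all, 7 of the 10 estimates in GMP were below 0, against 49.9% of all tested genes, and their median was -0.18.

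**Figure D2:**
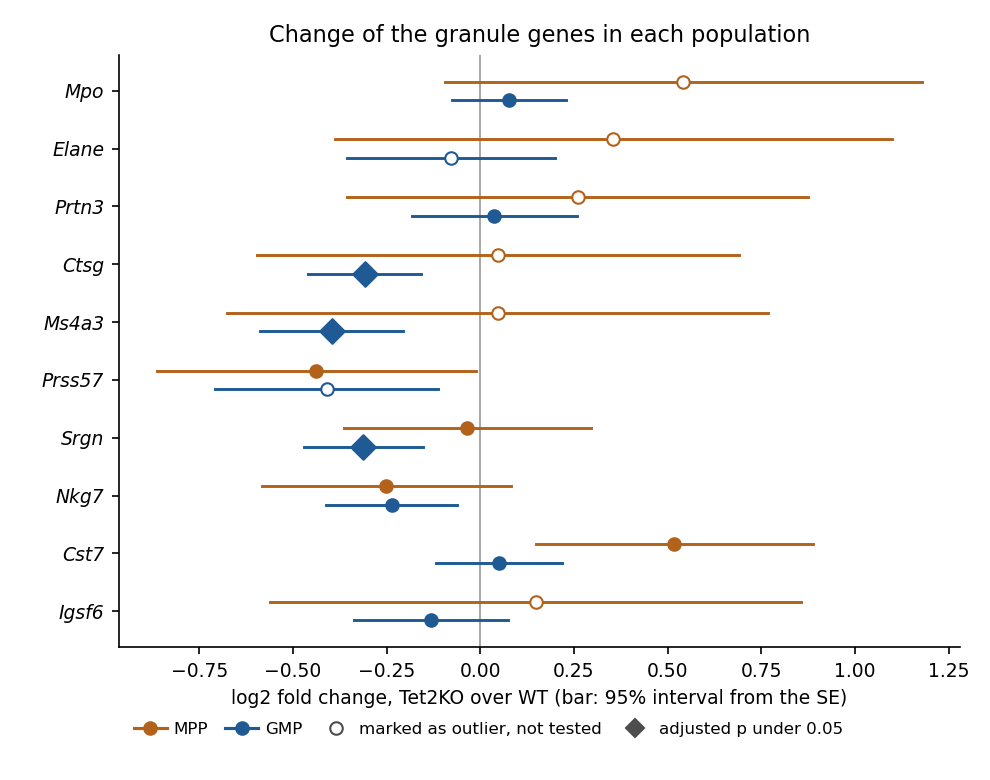
Log2 fold change of Tet2KO over WT for the 10 granule genes in MPP and GMP, with 95% intervals computed from the deposited SE; the marks separate called, tested and outlier-marked genes. The intervals in MPP are wider, and the 3 called genes (Ctsg, Ms4a3 and Srgn) lie below 0 in GMP.

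The upstream sequences of the 3 called genes are shown with those of Mpo, Elane and Prtn3, whose estimates in GMP lay near 0. They come from RefSeq windows of GRCm38.p6, which run from 250 bases before to 50 bases after a gene's start, and only the bases before the coding transcripts of GENCODE are given. 9 of the 10 genes matched a window, and Prss57 did not. Capitals mark matches on either strand to GGAAGT (the core bound by ETS factors such as PU.1), CAACNG (MYB), TTGCNNAA (C/EBP) or TGTGGT (RUNX). CAACNG matches overlap the E-box CANNTG where N is T. The stretches shown differ in length: 47 bases for Mpo, 185 for Elane, 197 for Prtn3, 244 for Srgn, and 250 for Ctsg and Ms4a3. Matches in the rest of a window are not shown, so the marked letters cannot be compared between these genes. Elane and Prtn3 each had 1 CAACNG match that is not shown. Ms4a3 had 2 GGAAGT matches, 1 of them shown, and 1 TTGCNNAA match that is not shown.
Ctsg, chr14:56102575-56102824 (-): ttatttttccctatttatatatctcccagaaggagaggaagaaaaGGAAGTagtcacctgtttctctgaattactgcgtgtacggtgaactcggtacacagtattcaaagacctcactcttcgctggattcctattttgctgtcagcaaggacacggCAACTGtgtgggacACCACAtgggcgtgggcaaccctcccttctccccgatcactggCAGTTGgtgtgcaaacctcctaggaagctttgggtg
Ms4a3, chr19:11640852-11641101 (-): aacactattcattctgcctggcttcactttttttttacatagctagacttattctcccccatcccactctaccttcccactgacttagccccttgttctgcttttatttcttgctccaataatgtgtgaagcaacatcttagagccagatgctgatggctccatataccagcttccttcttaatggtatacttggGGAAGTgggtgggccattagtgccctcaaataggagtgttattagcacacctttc
Srgn, chr10:62527452-62527695 (-): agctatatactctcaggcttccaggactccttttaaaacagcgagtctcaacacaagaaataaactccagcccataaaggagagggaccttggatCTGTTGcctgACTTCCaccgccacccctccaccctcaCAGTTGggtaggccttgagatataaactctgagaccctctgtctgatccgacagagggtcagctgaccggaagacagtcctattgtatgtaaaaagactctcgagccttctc
Mpo, chr11:87793534-87793580 (+): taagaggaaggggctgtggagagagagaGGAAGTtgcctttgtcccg
Elane, chr10:79886062-79886246 (+): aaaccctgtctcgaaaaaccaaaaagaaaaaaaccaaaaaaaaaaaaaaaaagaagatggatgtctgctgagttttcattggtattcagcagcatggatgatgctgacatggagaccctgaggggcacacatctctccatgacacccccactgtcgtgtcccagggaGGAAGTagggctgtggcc
Prtn3, chr10:79879417-79879613 (+): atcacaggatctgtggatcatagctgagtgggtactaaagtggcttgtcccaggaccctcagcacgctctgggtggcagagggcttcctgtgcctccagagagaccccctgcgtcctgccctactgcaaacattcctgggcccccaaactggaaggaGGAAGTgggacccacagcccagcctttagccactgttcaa

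The GGAAGT motif was in the windows of 7 of the 9 genes, against 23.8% of all 32851 windows. CAACNG was in 5 of 9, against 35.0%, TTGCNNAA in 2 of 9, against 10.8%, and TGTGGT in 3 of 9, against 16.8%. GGAAGT appears in all 6 sequences shown, on either strand, so it does not separate the called genes from the others. A match describes letters and not binding. CpG sites, the substrate of DNA methylation, were counted in the same windows. Of the 9 genes, 7 had fewer than the median of 7. Ms4a3 had 0, as did 5.43% of all windows. The other called genes, Ctsg and Srgn, had 8 each, and 51.4% of all windows held fewer than 8. Elane had 6, and 43.6% of all windows held fewer than 6. Methylation was not analysed here.

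In MPP none of the 10 genes was called by DESeq2, and most could not be tested. 6 of the 10 carried the outlier mark (Mpo, Elane, Prtn3, Ctsg, Ms4a3 and Igsf6) in the authors' deposited table, against 3.5% of the genes with a mean of at least 10. The other 4 were tested and 0 were called, against 0.616% of all 11859 tested genes, and 2 of the 4 had an unadjusted p under 0.05, against 9.72%. Cst7 had 0.52 (SE 0.189, unadjusted p = 0.00608, adjusted p = 0.250 by DESeq2) in the authors' deposited table, short of the 0.682 that a call required at its SE. Prss57 had -0.44 (SE 0.217, unadjusted p = 0.0438, adjusted p = 0.493 by DESeq2) in the authors' deposited table. Nkg7 stood at -0.25 (SE 0.169, adjusted p = 0.679) and Srgn at -0.03 (SE 0.168, adjusted p = 0.974) by DESeq2 in the authors' deposited table.

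The 6 outlier-marked genes in MPP all had estimates above 0. Mpo had 0.54 (SE 0.325, interval -0.095 to 1.18), Elane 0.35 (SE 0.379) and Prtn3 0.26 (SE 0.314) in the authors' deposited table. Igsf6 had 0.15 (SE 0.362), and Ctsg and Ms4a3 had 0.05 each (SE 0.328 and 0.368) in the authors' deposited table. Each of the 6 intervals included 0. Of all 10 estimates in MPP, 3 were below 0, against 50.9% of all tested genes, and the median was 0.10.

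Most of the granule genes had a larger SE than genes of like mean. In MPP the SE of the 6 outlier-marked genes was 1.47 to 3.48 times the median SE of the genes nearest to them in mean, and that of the 4 tested genes was 0.979 to 1.81 times. Mpo had the ratio of 3.48. The largest SE of any gene in MPP was 0.388 in the authors' deposited table, so the SEs of Elane and Ms4a3 lay close to that limit. In GMP the ratio was 1.77 for Prss57 and 2.09 for Elane, and 1.02 to 1.65 for the 8 tested genes. Monocyte markers carried the same mark in MPP, 6 of 7 listed genes, and in both populations so did all 5 erythroid markers whose mean reached 10. Which mice lie behind these marks cannot be read from the tables, and the part of other cells in the spread was not tested.

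**Figure D3:**
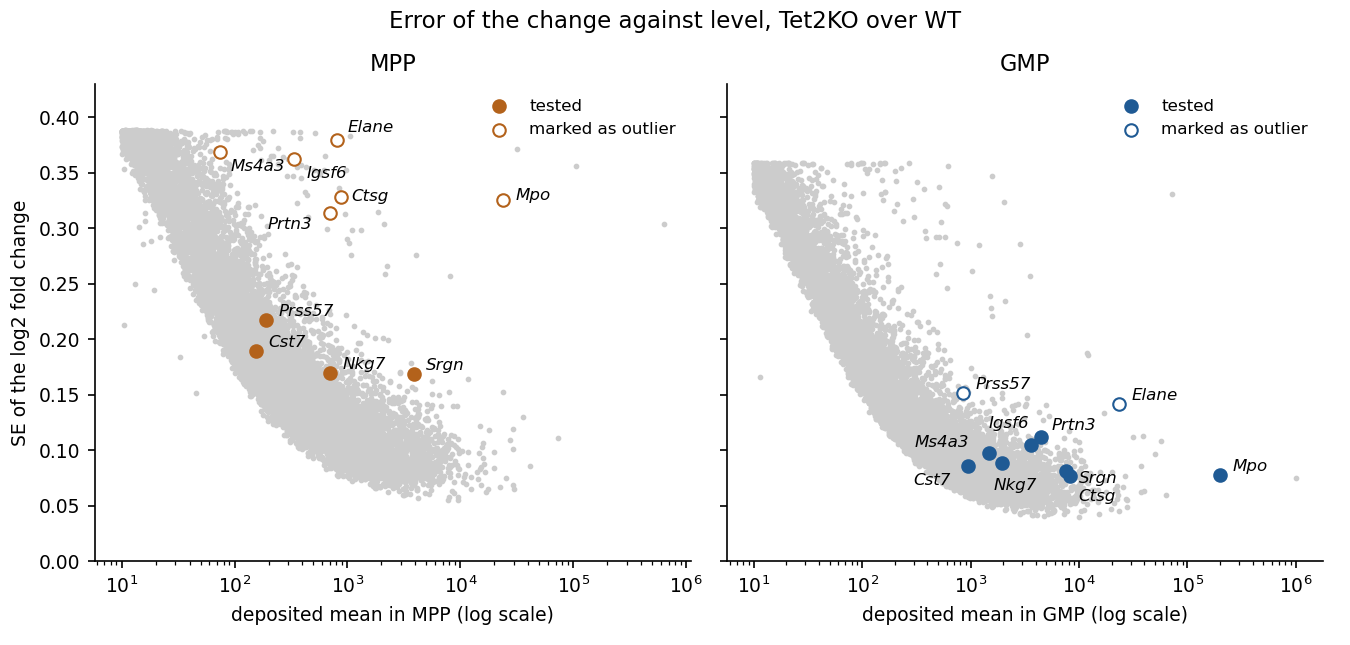
SE of the log2 fold change against the deposited mean (log scale) in MPP and GMP, each grey point a gene with a mean of at least 10, filled points tested granule genes and open points outlier-marked ones. In MPP the 6 open points lie above the band of genes of like mean, Mpo by 3.48 times the median of its neighbours.

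The change in GMP was not shown to differ from that in MPP for any of the 10 genes. The difference, GMP minus MPP, could be tested for the 3 genes that were tested in each population, and 0 were called, against 0.0453% of 17660 genes. It was -0.47 for Cst7 (interval -0.874 to -0.0613, adjusted p = 0.99993 by a two-sided normal test on the DESeq2 values). For Srgn it was -0.28 (interval -0.644 to 0.0895) and for Nkg7 0.01 (interval -0.360 to 0.388). For the outlier-marked genes the differences were given without a p: -0.46 for Mpo (interval -1.12 to 0.191), -0.43 for Elane, -0.44 for Ms4a3 and -0.36 for Ctsg. With the outlier-marked genes included, the adjusted p was 0.9999 for all 10.

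Prss57, Prtn3 and Elane lie within 106.7 kb of chromosome 10 in GRCm38 (Prss57 79781474 to 79790961, Prtn3 79874476 to 79883174, Elane 79886247 to 79888215), with 3072 bp between Prtn3 and Elane. Of their 14 neighbours, 9 were tested in each table and 0 were called by DESeq2. Ctsg (chr14, 56099881 to 56102574) lies among mast cell proteases and granzymes, of which 9 of 10 neighbours had means under the limit for a test in both tables. Mpo (chr11, 87793581 to 87804413) had 10 neighbours, of which 6 were tested in GMP and 1 was called: Tspoap1 (Bzrap1 in the authors' deposited table), at 0.56 (SE 0.142, adjusted p = 0.00633 by DESeq2).

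Some values may share reads with an overlapping gene, since the strand setting of the counting is not given in the sources used here. Prss57 shares 1157 of its exon bases, 40.7%, with Fstl3 on the opposite strand, which had a mean of only 27.8 in GMP in the authors' deposited table. Mpo shares 15.0% with an antisense gene and Prtn3 9.18% with Plppr3. Igsf6 lies inside Mettl9 with 0 shared exon bases. Mettl9 was called lower in MPP, at -0.44 (SE 0.122, adjusted p = 0.0472 by DESeq2) in the authors' deposited table, while Igsf6 was not tested there.

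Other granule and lysosome genes were taken as lists, to be read against the 3.96% called and 49.9% below 0 among genes tested in GMP. A list of 26 held lysosomal hydrolases, lysosomal membrane proteins and other granule contents. Of these, 24 were tested in GMP, 22 had estimates below 0 and 2 were called, both lower, with a median of -0.15. These were Ctsb, the cysteine protease cathepsin B, at -0.28 (SE 0.0776, adjusted p = 0.0131 by DESeq2), and Arsb, a sulfatase that degrades glycosaminoglycans, at -0.40 (adjusted p = 0.0198), in the authors' deposited table. Both had larger unadjusted p-values by DESeq2 (0.000258 and 0.000469) than Ms4a3. Like that of Ms4a3, their calls were lost with all statistics divided by their robust spread. In MPP 23 of the 26 were tested, 15 were below 0 and 0 were called, with a median of -0.09. The median of all tested genes was 0.00025 in GMP and -0.0038 in MPP.

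A list of 13 held Ctsc, other cysteine proteases of lysosomes and protease inhibitors. In GMP 12 were tested and 10 were below 0, against 49.9% of all tested genes. Only 1 was called, in the other direction, against 3.96% of all. The called gene was Ctss, the cathepsin of antigen-presenting cells, at 0.67 ( adjusted p = 0.000238 by DESeq2) in the authors' deposited table. Ctsc, which activates the serine proteases, stood at -0.11 (adjusted p = 0.584) in GMP, and Serpinb1a, an inhibitor of elastase, proteinase 3 and cathepsin G, at -0.24 (adjusted p = 0.0635) by DESeq2 in the authors' deposited table. Of the enzymes that build the glycosaminoglycan chains of serglycin, 21 of 25 were tested in GMP, 15 were below 0 and 0 were called. Of 22 genes for sorting and release of granules, 21 were tested and 1 was called: Ap3s1, a subunit of the AP-3 adaptor that sorts cargo to granules, was lower at -0.37 (SE 0.0851, adjusted p = 0.00118 by DESeq2) in the authors' deposited table. The calls of Ctss and Ap3s1 were lost with all statistics divided by their robust spread. These lists too are to be read against the 3.96% called and 49.9% below 0 among all tested genes. In MPP none of these 3 lists had a called member, where 0.616% of all tested genes were called.

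The transcription factors that control granule genes were mixed. Gfi1, a repressor required for neutrophil formation, was called lower in both populations, by 1.00 in MPP (SE 0.233, adjusted p = 0.00743) and by 0.33 in GMP (SE 0.0828, adjusted p = 0.00420), by DESeq2 in the authors' deposited tables. Irf8, which favours the monocyte path, was called higher in GMP by 0.50 (SE 0.131, adjusted p = 0.00936 by DESeq2) in the authors' deposited table. Runx1, which takes part in activating granule genes, was called higher in MPP by 0.47 (SE 0.106, adjusted p = 0.00551 by DESeq2) in the authors' deposited table. Of the 11 listed factors, 10 were tested in GMP and 8 in MPP. In each population 1 was called higher and 1 lower, against 3.96% of all tested genes in GMP and 0.616% in MPP. With all statistics divided by their robust spread, 72 genes stayed called in GMP and 17 in MPP. In GMP, Gfi1 and Irf8 had larger p-values by DESeq2 (5.26e-05 and 0.000158) than Ms4a3 (4.86e-05). The call of Ms4a3 was lost under that setting, so theirs were lost too. Those of Runx1 and Gfi1 in MPP were also lost. Cebpe stood at -0.41 (adjusted p = 0.174), Cebpa at 0.12 (adjusted p = 0.490) and Myb at -0.07 (adjusted p = 0.595) in GMP, by DESeq2 in the authors' deposited table.

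Of 24 listed paralogues of the granule genes, 9 were tested in GMP and 2 were called, against 3.96% of all tested genes: Cma1, a mast cell chymase related to Ctsg, was lower at -1.71 with a mean of only 18.7, and Ms4a6c, a relative of Ms4a3 found in monocytes, was higher at 0.56, in the authors' deposited table. Of 14 genes of the later neutrophil granules, 5 were tested in GMP and 3 were called, in both directions, against the same 3.96%. Mmp8, the collagenase of secondary granules, was higher at 1.36 and Cybb, a subunit of the NADPH oxidase, at 0.87, while Pglyrp1, a peptidoglycan-binding protein, was lower at -0.77, in the authors' deposited table.

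**Figure D4:**
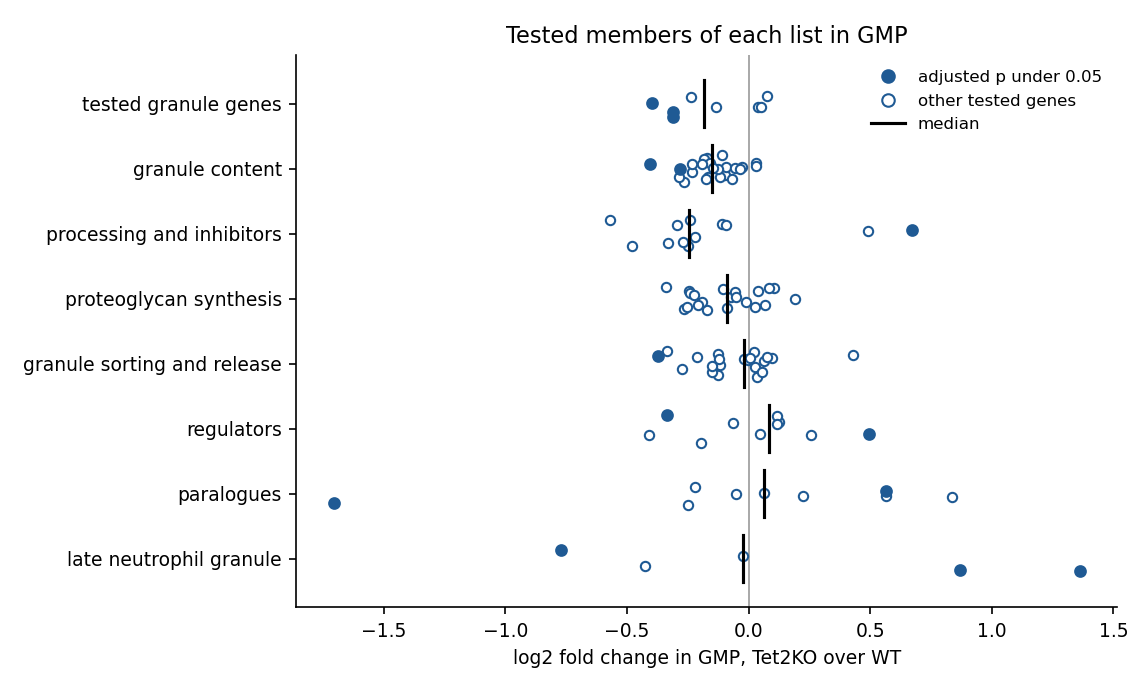
Log2 fold change in GMP of every tested member of each list, filled where the adjusted p is under 0.05 and open otherwise, with a bar at the median of the list. The tested granule genes have 3 filled points, all below 0, and the list of granule contents has 2.

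Markers of other cells in GMP are to be read against the 3.96% of all tested genes that were called. Of the 7 monocyte markers, whose means summed to 6084, 5 were tested and 3 were called higher (Csf1r, Ms4a6c and Irf8). The other 2 tested monocyte markers lay below 0 and were not called, Ly86 at -0.18 and Cx3cr1 at -0.30, in the authors' deposited table. Of the outlier-marked ones, F13a1 stood at -0.25 and Ccr2 at 0.40 in the authors' deposited table. Of the 6 markers of mast cells and basophils, which also make serglycin, 3 were tested and all 3 lay below 0. Gata2 was called lower at -0.37 in the authors' deposited table. The outlier-marked Ms4a2 stood at -1.28 and Cpa3 at -0.28. Markers of mature neutrophils summed to 737, of which Cxcr2 was 642. Of the 3 tested, 1 was called higher, Mmp8. S100a8 stood at -0.42 (adjusted p = 0.413) and Cxcr2 at 0.43 (adjusted p = 0.141) by DESeq2 in the authors' deposited table, and Ltf, Camp, Ngp and S100a9 had means of 0.933 to 4.94. Nkg7, Cst7 and Srgn are also made by cytotoxic lymphocytes, whose 7 markers summed to 307 in GMP, 296 of it Gzmb, and to 72.6 in MPP. B cell markers summed to 159 and eosinophil markers to 214 in GMP. Only 1 B cell and 2 eosinophil markers were tested, with 0 called. The tested eosinophil markers lay below 0, Prg3 at -0.94 and Il5ra at -0.36. The outlier-marked Prg2 stood at -0.65 and Epx at -0.61. Megakaryocyte markers summed to 390, and of the 3 tested Pf4 and Vwf were called higher. Erythroid markers summed to 1870 in GMP, with 5 marked as outliers and 0 tested. The part of these cells in the change of the granule genes was not tested.

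The 5 genes nearest to the median of the granule genes, over 3 values (the log2 fold changes in MPP and GMP and the log2 ratio of the means), were Ncam1, Alas1, Abcd2, F13a1 and Cpa3, at distances of 0.128 to 0.291 among 9536 genes. Alas1, which catalyses the entry step of haem synthesis, had means of 383 in MPP and 2863 in GMP and log2 fold changes of -0.13 in both, in the authors' deposited tables. Myeloperoxidase carries a haem group, and a link to Alas1 was not tested. Ncam1, the nearest gene, carried the outlier mark in both populations, as did F13a1 and Cpa3, and Abcd2 carried it in GMP. F13a1 is among the listed monocyte markers and Cpa3 among those of mast cells and basophils.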

How the data were processed

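RNA of 16 libraries was amplified from 2 ng and read once per fragment over 75 bp, per the labels' protocols. The submitters' processing notes name STAR, mm10 and DESeq2, without versions. The strand setting of the counting is not given in the sources used here, nor are the counter and the annotation. For each population the authors deposited 1 table of DESeq2 results. Its mean column is a normalized signal, the mean of normalized counts, per the file headers. The log2 fold change, its SE, the p-value and its adjusted form were deposited by the authors. Genes with a mean under 10 or marked as outliers have no adjusted p. The deposited p-value was checked to be a two-sided normal p, from the change divided by its SE, and the adjusted one its Benjamini-Hochberg value over tested genes. The SEs had a ceiling of 0.388 in MPP and 0.359 in GMP, so the fold changes may be shrunken towards 0 and understate changes.

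Depth per library is unknown, so precision is given by the SE. From the tables were computed 95% intervals, levels per kb of GENCODE M21 exons, and the difference between populations, with errors treated as independent, although some mice gave both populations. Each SE was compared with up to 100 genes per side in mean. The steps for calls and for the difference were tried on simulated data, which checks those steps and not the deposited values. The members and the 7 gene lists and 10 marker lists were chosen with earlier results of these data known. Named genes are all members, called list members, called neighbours among 5 per side, and the 5 nearest genes with a mean of at least 50; other genes were named after their values were seen. Alternatives were the threshold, the filter on means, inclusion of outlier-marked genes, recentring, an empirical null and correlated errors. Scripts ran in Python 3.11.15 (scipy 1.17.1, pandas 2.3.3, numpy 2.4.6, matplotlib 3.10.9).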

Additional observations from a re-analysis of the deposited data

How the results depend on the processing

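The 3 calls in GMP (Ctsg, Ms4a3 and Srgn) were made under each alternative tried except the empirical null, which gave 0. Any other gene with a larger p by DESeq2 in GMP than Ms4a3 (4.86e-05) was likewise not called under the empirical null. Those alternatives were thresholds of 0.1 and 0.01, a mean of at least 50, no filter, outlier-marked genes included, and recentring. In MPP, and for the difference between populations, 0 of the granule genes were called under every alternative run. Counts over all genes moved more: in GMP 456 genes became 72 with the empirical null, 198 at 0.01 and 768 at 0.1, and in MPP 73 became 17 with the empirical null and 36 at 0.01. For the difference, 8 genes became 49 with an error correlation of 0.346, 17 with the empirical null and 0 at 0.01. By the longest coding transcript, Ms4a3 ranked 9 in MPP and 8 in GMP per kb, Prss57 10 in MPP and Cst7 9 in GMP. No paired analysis was possible because the tables hold no values per library, and no library could be left out for the same reason. Depth per library is unknown. Mpo was not tested in MPP. At its SE there, a tested gene would have needed a change of 1.17 on the log2 scale to be called.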

Other observations

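Other genes with a high ratio of GMP to MPP means were described after their values were seen. Among genes whose mean reached 10 in MPP and in GMP, 89 besides the granule genes had a ratio of at least 4. In MPP 19.1% of them carried the outlier mark, against 3.32% of all 11618 such genes. Estimates above 0 made up 62.9%, against 49.1%. In GMP 27.0% carried the mark, against 2.63% of all 11618, and 58.4% had estimates below 0, against 50.03%. Of the 65 tested in GMP, 15 were called lower and 5 higher. Of all 11312 tested in GMP, 249 were called lower and 198 higher. Of 5049 genes with a ratio under 1, 64.3% had estimates above 0 in GMP, against 49.97% of all 11618. Of these, 4920 were tested in GMP, with 139 called higher and 36 lower. In MPP 56.9% of the 5049 also had estimates above 0, against 49.1% of all 11618. The ratio was taken from the same libraries as the fold changes.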
